A study of Homo sapiens with 20 samples.

Results

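The 27 genes examined here encode receptors for GABA and glycine, the proteins that anchor these receptors at synapses, and a pair of chloride transporters. They were chosen by symbol among the coding records of the deposited tables, and where a symbol occurred in several records, the record with the highest mean over the days was kept. The 27 symbols resolved to 26 distinct records of 20237 coding records, because the chosen record for GLRA3 was the GLRA2 record on chromosome X, which carries both symbols. The record at the GLRA3 locus itself on chromosome 4 was therefore described in addition. Polyadenylated RNA was sequenced from neural progenitor cells (NPCs) that had been made from the human embryonic stem cell line H1, so every culture came from 1 line. On day 0 the progenitors were in medium with FGF, a growth factor that keeps them dividing. From then on the cultures of days 1, 2, 4, 5, 11 and 18 were kept in medium without FGF and with BDNF, a neurotrophic factor, and those of days 5, 11 and 18 had been replated on another coated surface at day 4. Each day had 3 cultures except day 5, which had 2.

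Expression was given as FPKM, the number of sequenced fragments corrected for the length of the transcript and the size of the library. It can be compared between genes of the same day, while comparisons between days also depend on how each day was scaled. Each record has a single FPKM value for a day, a joint estimate from all of its cultures, so no standard deviation between cultures was computed and the depth behind each value is unknown. The tests of the authors between adjacent days were not used. Differences are therefore reported as sizes, without a statement on their error. They are given on the scale log2(FPKM + 0.1), which understates the change of low genes, and relative to the median difference of the 14443 records with a mean of at least 1 FPKM. That median was -0.56 from day 0 to day 18, and the summed FPKM over all records went from 413978 to 251156. A gene was called higher or lower where the relative difference was at least 2-fold. Calls were counted over the 14107 coding records with a mean of at least 0.1 FPKM. In bulk RNA, a change in the share of cells that express a gene and a change in RNA per cell cannot be told apart.

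GABA and glycine open chloride channels in the neuronal membrane through GABA-A and glycine receptors, which are rings of 5 subunits, while GABA-B receptors act through G proteins and are dimers of GABBR1 and GABBR2. The direction in which chloride flows through an open channel depends on the chloride gradient. SLC12A2 (NKCC1) carries chloride into the cell and SLC12A5 (KCC2), a transporter known for its restriction to neurons, carries it out. In the developing brain, SLC12A5 is known to become abundant as neurons mature, and GABA changes from a depolarising to a hyperpolarising transmitter.

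Of the 26 records, 14 reached a mean of 0.1 FPKM. From day 0 to day 18, 5 of these were called higher, GLRA2, GABBR2, SLC12A5, GABRA2 and, only relative to the median, GPHN, whereas 18.5% of all counted coding records were called higher. Only GABRE, a GABA-A subunit gene, was called lower among the 14, against 12.7% of all counted coding records. The other 8 were called in neither direction. GABRA2 reached the mean of 0.1 FPKM only through its day 18 value, so that it could be counted only as higher. The median relative difference of the 14 was 0.72 on the log2 scale, against 0.04 for all counted coding records. As deposited, without the subtraction of the median, GPHN was no longer called, SLC12A2 and GABRG3 were called lower beside GABRE, and 27.3% of all calls were upwards rather than 59.3%. Between day 0 and day 18 the number of these records above 1 FPKM went from 7 to 10, by the addition of GLRA2, SLC12A5 and GABBR2. These genes are among those called higher above, and the same count was not made for all coding records.

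**Figure D1:**
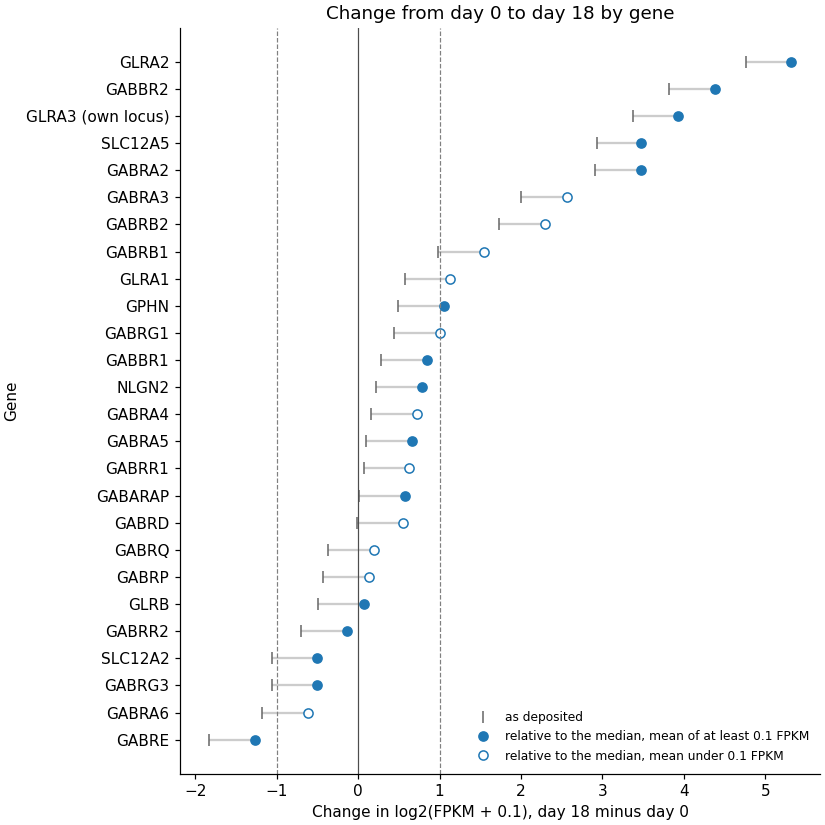
Change from day 0 to day 18 by gene, in log2(FPKM + 0.1), as deposited (ticks) and after subtraction of the median (circles, filled where the mean reached 0.1 FPKM), with dashed lines at a 2-fold difference. GLRA2 lay highest at 5.32 and GABRE lowest at -1.27, each relative to the median, and all positions were shifted to the left by the same amount as deposited. GABRR3, listed at 0 on every day, is not drawn.

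Between adjacent sampled days, all calls of these genes came at the last 2 steps. From day 0 to day 1, 8.58% of counted coding records differed 2-fold in either direction and none of the 14 did. None of the 14 was called from day 1 to day 2, day 2 to day 4 or day 4 to day 5, steps at which 0.560%, 1.30% and 0.709% of counted coding records were called. From day 5 to day 11, 3 of the 14 were called higher (GLRA2, GABBR2 and SLC12A5) and none lower, against 7.05% of counted coding records in either direction. From day 11 to day 18, 4 were called higher (GABRA2, SLC12A5, GLRA2 and GABBR2) and none lower, against 4.66%. Of these, GABRA2 was counted only through its day 18 value, so its call at this step is not informative. As deposited, 2 genes were called at each of the last 2 steps, GLRA2 and GABBR2 at the first of them and GABRA2 and SLC12A5 at the second. Of all counted coding records, 361 were called higher and 645 lower at the first as deposited, and 234 and 499 at the second. The sampled intervals were unequal in length, so the steps are not rates.

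**Figure D2:**
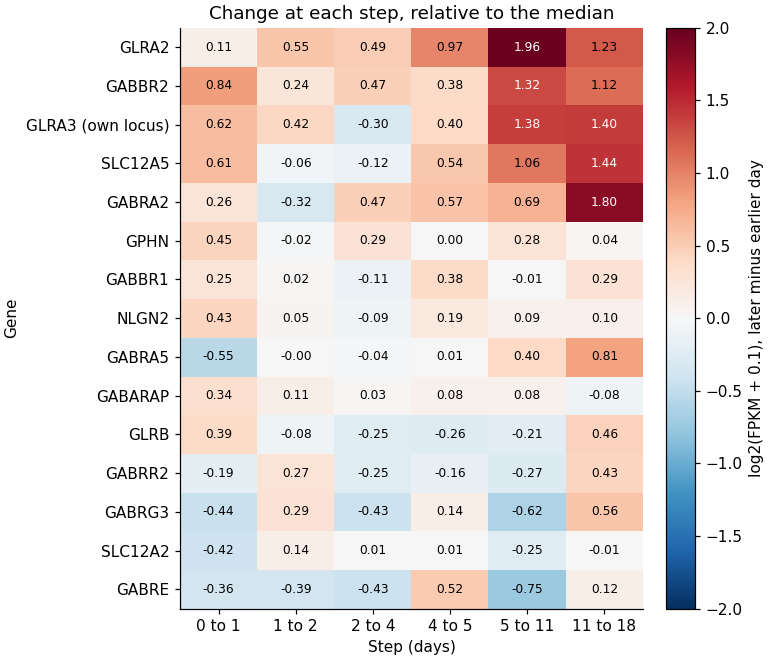
Relative change in log2(FPKM + 0.1) of each counted gene, and of GLRA3 at its own locus, at each of the 6 steps between sampled days, with red for higher and blue for lower on the later day. The values of at least 1 lie in the last 2 columns and belong to GLRA2, GABBR2, GLRA3, SLC12A5 and GABRA2.

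The question put to the transporters was how the balance of chloride import and export messengers moved as the progenitors differentiated. SLC12A2 (chr5:127419483-127525379, hg19, plus strand) measured 14.7, 10.3, 11.8, 11.9, 11.3, 8.54 and 7.01 FPKM over the 7 days in order. Its highest value was thus the progenitor value and its lowest the last. Relative to the median the difference from day 0 to day 18 was -0.50 on the log2 scale and was not called, while as deposited it was -1.06 and 2-fold lower. Over the same days SLC12A5 (chr20:44650329-44688789, plus strand) measured 0.225, 0.364, 0.357, 0.321, 0.484, 0.997 and 2.37 FPKM. It stayed below 0.5 FPKM through day 5 and then rose at both of the last steps, by 1.06 and by 1.44 on the log2 scale. From day 0 to day 18 its FPKM rose 10.5-fold, a relative log2 difference of 3.48.

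The ratio of SLC12A2 to SLC12A5, which does not depend on how a day was scaled, ran 65.6, 28.4, 32.9, 37.0, 23.5, 8.57 and 2.96 over the 7 days in order. It was lower at day 1 than at day 0, lay between 28.4 and 37.0 until the cells were replated, and was lower at each later day than at the day before. The importer messenger remained the more abundant of the pair at every day sampled. Between day 0 and day 18 the ratio fell 22.1-fold, of which 7.91-fold came between day 5 and day 18. Taken as deposited, -3.40 of the total of -4.47 on the log2 scale, or 76.0%, was the higher SLC12A5 value and -1.07 the lower SLC12A2 value. This split, unlike the ratio, depends on how the days were scaled. Relative to the median, with 0.1 FPKM added, the differences were 3.48 for SLC12A5 and -0.50 for SLC12A2. Adding 0.1 FPKM to both genes gave a ratio of 45.7 at day 0 and 2.89 at day 18. The kit used is not known to mark strand, and 9.00% of SLC12A2 exon bases and 2.90% of SLC12A5 exon bases lie opposite a lincRNA record on the other strand, whose reads could not be separated.

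**Figure D3:**
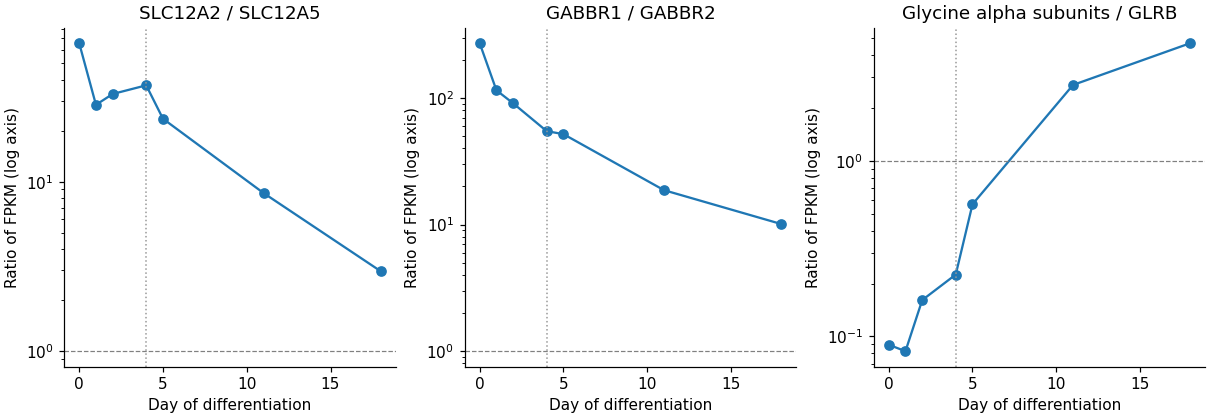
Ratios of FPKM by day for SLC12A2 over SLC12A5, GABBR1 over GABBR2, and the summed glycine alpha subunits (GLRA1, GLRA2 and GLRA3 at its own locus) over GLRB, on log axes, with a dashed line at a ratio of 1 and a dotted line at the replating on day 4. The first ratio went from 65.6 to 2.96, the second from 271 to 10.1, and the third from 0.0896 to 4.69, crossing 1 between day 5 and day 11.

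The sequences at the starts of the deposited SLC12A2 and SLC12A5 records are shown because these genes moved apart. Each window holds 250 bases before the start and 50 after it, read 5′ to 3′ from the GRCh37 (hg19) genome at the deposited exon coordinates, with GC boxes (GGGCGG, or CCGCCC for the other strand, overlapping matches included) in capitals. The SLC12A2 window is chr5:127419233-127419532. That of SLC12A5 is chr20:44650079-44650378, at the most upstream start of the record, which 1 of its 4 isoforms uses. Both are on the plus strand.
SLC12A2: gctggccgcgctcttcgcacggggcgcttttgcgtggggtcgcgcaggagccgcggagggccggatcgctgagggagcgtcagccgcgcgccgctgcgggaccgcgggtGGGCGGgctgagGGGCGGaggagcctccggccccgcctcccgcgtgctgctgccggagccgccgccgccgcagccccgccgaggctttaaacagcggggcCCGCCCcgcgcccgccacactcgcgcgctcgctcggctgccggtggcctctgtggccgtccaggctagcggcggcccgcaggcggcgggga
SLC12A5: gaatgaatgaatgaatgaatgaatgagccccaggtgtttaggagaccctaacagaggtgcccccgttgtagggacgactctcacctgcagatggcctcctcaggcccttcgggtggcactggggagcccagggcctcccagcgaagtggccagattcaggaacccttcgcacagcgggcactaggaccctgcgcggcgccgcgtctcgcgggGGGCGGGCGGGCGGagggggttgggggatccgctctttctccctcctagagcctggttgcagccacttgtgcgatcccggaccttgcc
The SLC12A2 window held 50 CpG dinucleotides, more than 97.1% of the 14092 windows of counted coding records, and had a GC content of 80.3%. The SLC12A5 window held 19 CpG, against a median of 24.0 over all windows, and had a GC content of 64.7%. Each of these windows contained 3 GC boxes, and 66.3% of all windows contained at least 1. Neither contained a TATA match (TATAAA on either strand, present in 6.67% of all windows). These are matches of letters near annotated starts, and no binding was measured.

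Other chloride transporters and the kinases that act on them were examined as a list of 18 genes, of which 16 were counted. Of these, 6 were called higher, 3 lower and 7 in neither direction, where 18.5% of all counted coding records were called higher and 12.7% lower. The median was 0.37 relative to the median of expressed records and -0.19 as deposited, where all counted coding records had 0.04 and -0.52. As deposited 2 were called higher and 3 lower, beside 1498 higher and 3983 lower of the 14107 counted coding records. The largest rises among genes with a mean of at least 1 FPKM were those of WNK2 and WNK3, kinases of the WNK family that regulates cation-chloride cotransport. WNK2 rose from 2.11 to 5.88 FPKM (1.99 on the relative log2 scale) and WNK3 from 2.72 to 5.27 FPKM (1.49, under 2-fold as deposited). The largest falls were those of SLC12A4 (KCC1) and SLC12A7 (KCC4), potassium-chloride cotransporters found in many tissues. SLC12A4, on a record merged with LCAT, went from 15.2 to 3.52 FPKM (-1.52) and SLC12A7 from 9.59 to 2.76 FPKM (-1.20). SLC12A4 thus exceeded SLC12A5 at day 18 as well as at day 0, by a smaller margin at day 18. The kidney transporter SLC12A1, on a record merged with CTXN2, had 0.121 FPKM at day 0 and 0.187 at day 18, and SLC12A3, another kidney transporter, stayed at or below 0.1 FPKM on every day.

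GABA-A receptors in the brain are usually built of alpha, beta and gamma subunits, and 9 genes of these classes were included beside 7 of other classes. Only 5 of the 16 genes reached a mean of 0.1 FPKM, GABRG3, GABRE, GABRA5, GABRA2 and GABRR2. The summed FPKM of the 9 alpha, beta and gamma genes was 3.41 at day 0 and 3.42 at day 18, with values from 1.84 to 2.74 at the days between. That of the other 7 was 1.38 at day 0 and 0.409 at day 18. The sums hold no other GABA-A genes than those chosen, so they are not totals of the receptor family. Within these sums, however, the make-up by gene differed between progenitors and late cultures.

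GABRG3, a gamma subunit gene (chr15:27216517-27778134, plus strand), was the highest of the 16 at every day, with 2.69, 1.82, 2.32, 1.70, 1.79, 1.00 and 1.24 FPKM from day 0 to day 18. Its difference from day 0 to day 18 was -0.50 relative to the median and -1.06 as deposited, and it was called lower only as deposited. Its share of the summed FPKM of the 16 genes went from 56.3% at day 0 to 32.4% at day 18. GABRA2 (chr4:46251581-46392421, minus strand), an alpha subunit common in forebrain, had 0.0238, 0.0387, 0.0142, 0.0586, 0.124, 0.225 and 0.830 FPKM over the same days. It was under 0.1 FPKM up to day 4 and rose most from day 11 to day 18, by 1.80 on the relative log2 scale. Its relative difference from day 0 to day 18 was 3.47, and its share of the 16-gene sum went from 0.497% to 21.7%. Cuffdiff2 marked GABRA2 as having too few fragments to test at all steps up to day 5, so its 34.9-fold ratio of day 18 to day 0 rests on a day 0 value near the limit of the data.

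GABRA5 (chr15:27112058-27194345, plus strand), an alpha subunit known from hippocampus and from extrasynaptic receptors, had 0.505, 0.288, 0.299, 0.290, 0.275, 0.346 and 0.547 FPKM. Its values were highest at the first and last days and differed by 0.66 relative to the median, which was not called. GABRE (chrX:151121597-151143151, minus strand), which encodes the epsilon subunit, had 0.960, 0.674, 0.509, 0.355, 0.521, 0.233 and 0.198 FPKM. It was the one counted gene of the whole group called lower, by -1.27 relative to the median and -1.83 as deposited. Its share of the 16-gene sum went from 20.1% to 5.18%. GABRR2 (chr6:89967239-90024967, minus strand), a rho subunit known from retina, had 0.244, 0.184, 0.253, 0.198, 0.155, 0.0899 and 0.112 FPKM and was called in neither direction, with too few fragments to test at each step.

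The remaining 11 GABA-A genes had means under 0.1 FPKM and were not counted. The highest values of GABRA3 (0.343 FPKM) and GABRB2 (0.290 FPKM) were reached at day 18, from 0.0108 and 0.0174 FPKM at day 0, and these were the only genes of the 11 with enough fragments for a test, at the last step. One isoform of the GABRB2 record carries the symbol of a second beta subunit gene. The highest value of GABRB1, another beta subunit, was 0.0976 FPKM at day 18, it was listed at 0 at day 0, and 36.5% of its exon bases lie opposite a lincRNA record. GABRG1 peaked at 0.0516 FPKM, GABRR1 at 0.0243 FPKM and GABRA4 at 0.0129 FPKM, each at day 18. GABRA6, known from cerebellar granule cells, had its highest value at day 0 (0.144 FPKM), as did GABRQ, the theta subunit (0.0894 FPKM). GABRP, the pi subunit, peaked at day 1 (0.0572 FPKM), and GABRD, the delta subunit of extrasynaptic receptors, at day 5 (0.0533 FPKM). GABRR3 was listed at 0 on every day, which at an unknown depth does not show that it was absent.

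**Figure D4:**
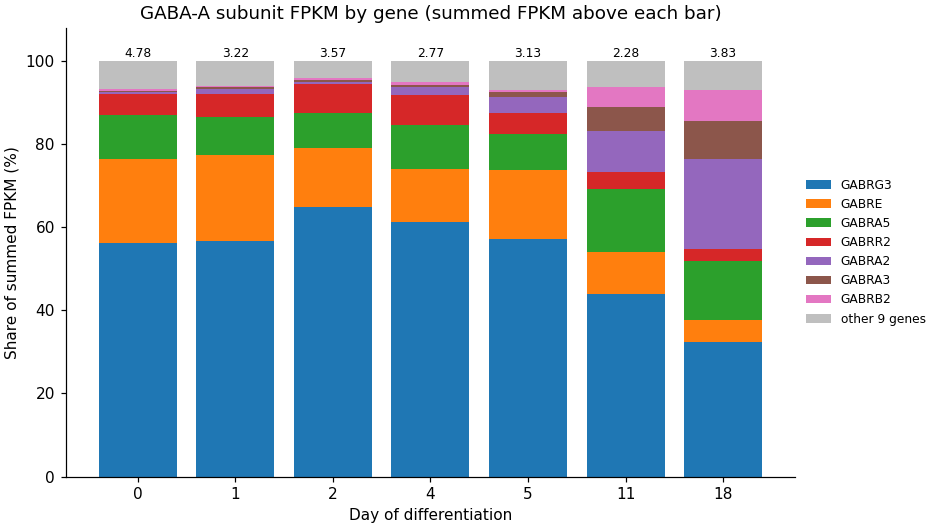
Share of each gene, in percent, of the summed FPKM of the 16 GABA-A subunit genes on each day, with the sum in FPKM above each bar. GABRG3 (bottom) went from 56.3% to 32.4% and GABRA2 (purple) from 0.497% to 21.7%, with GABRA3 at 8.96% and GABRB2 at 7.57% on day 18.

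Many GABA-A genes lie in clusters. On chromosome 4, GABRA2 and its cluster neighbours GABRG1, GABRA4 and GABRB1 all had their highest value at day 18. It was 0.830 FPKM for GABRA2 and below 0.1 FPKM for its neighbours, which were not counted and had too few fragments for a test at every step. A highest value at day 18 was shared by 11 of the 26 records of the whole group. On chromosome X, GABRE went from 0.960 to 0.198 FPKM and GABRA3, on the same strand, from 0.0108 to 0.343 FPKM, with GABRQ below 0.1 FPKM throughout. On chromosome 15, GABRA5 and GABRG3, neighbours on the plus strand, had relative differences of 0.66 and -0.50, neither of them called. The start of GABRG3 is shown as that of a gene that was among the most reduced with a mean of at least 1 FPKM, in the window chr15:27216267-27216566 (plus strand), with GC boxes in capitals as above.
GABRG3: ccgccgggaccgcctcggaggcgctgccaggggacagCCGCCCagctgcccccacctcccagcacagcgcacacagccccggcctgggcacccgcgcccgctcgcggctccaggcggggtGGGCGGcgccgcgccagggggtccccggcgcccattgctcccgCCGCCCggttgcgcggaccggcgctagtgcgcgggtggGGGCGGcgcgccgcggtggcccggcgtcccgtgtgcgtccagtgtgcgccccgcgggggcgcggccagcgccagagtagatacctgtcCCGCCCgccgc
It held 47 CpG, more than 95.0% of all windows, and 5 GC boxes, at a GC content of 82.0%.

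Both subunits of the GABA-B receptor are needed at the cell surface, GABBR1 to bind GABA and GABBR2 to couple to the G protein. GABBR1 (chr6:29523390-29600962, minus strand) had 19.5, 21.7, 22.8, 21.2, 26.2, 23.4 and 23.6 FPKM from day 0 to day 18. All 7 values lay between 19.5 and 26.2 FPKM, and the difference of 0.84 relative to the median (0.28 as deposited) was not called. GABBR2 (chr9:101050366-101471175, minus strand) had 0.0719, 0.188, 0.251, 0.388, 0.506, 1.26 and 2.33 FPKM. It was higher at each day than at the day before, a pattern that 2.30% of counted coding records showed, and of the 14 only GLRA2 shared it. Its relative difference from day 0 to day 18 was 4.38, with 1.32 and 1.12 at the last 2 steps. GABBR1 nevertheless exceeded GABBR2 on every day, and the ratio of GABBR1 to GABBR2 went from 271 at day 0 to 51.8 at day 5, and was 18.7 and 10.1 on the last 2 days.

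The GABBR1 record also carries the symbol UBD, a ubiquitin-like gene, so its level may include that gene, and 30.8% of its exon bases lie opposite a lincRNA record on the other strand. For GABBR2 the corresponding share was 5.45%. GABBR2 had too few fragments for a test at the first 2 steps, so its ratios at days 0 and 1 are the least certain.

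Glycine receptors are built of alpha subunits alone or of alpha subunits with the beta subunit GLRB, which ties the receptor to the scaffold protein gephyrin. The largest rise of all 26 records was that of GLRA2 (chrX:14547420-14749931, plus strand), an alpha subunit known from embryonic brain. It had 0.163, 0.166, 0.302, 0.464, 0.952, 3.57 and 7.03 FPKM from day 0 to day 18. Its values were higher at every day than at the day before, and the rise of 1.96 on the relative log2 scale from day 5 to day 11 was the largest of any counted gene of the group at any step. From day 0 to day 18 the relative difference was 5.32, a 43.1-fold ratio of FPKM that rests on a day 0 value with too few fragments for a test at the first 2 steps.

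GLRA3, another alpha subunit, had at its own locus (chr4:175563198-175750465, minus strand) 0.0184, 0.0705, 0.135, 0.0909, 0.140, 0.462 and 1.13 FPKM. It followed GLRA2 in direction at the last 2 steps, by 1.38 and 1.40, and its relative difference from day 0 to day 18 was 3.93. GLRA2 exceeded it on every day, 6.23-fold at day 18. GLRA1 (a record that also carries the GLRA3 symbol), the alpha subunit typical of adult spinal cord, had a mean under 0.1 FPKM and was not counted. Its highest value was 0.130 FPKM at day 11, and at day 18 the level of GLRA2 was 61.5-fold that of GLRA1.

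GLRB (chr4:157997277-158093242, plus strand) had 2.52, 3.12, 3.03, 2.54, 2.00, 1.54 and 1.76 FPKM. Its difference from day 0 to day 18 was 0.07 relative to the median and -0.49 as deposited, so that its sign depended on the scaling, and it was called under neither. The summed alpha subunits, GLRA1, GLRA2 and own-locus GLRA3, divided by GLRB gave 0.0896, 0.0823, 0.161, 0.225 and 0.566 from day 0 to day 5, and then 2.71 at day 11 and 4.69 at day 18. The alpha messengers were thus fewer than those of GLRB up to day 5 and more abundant from day 11.

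The start of GLRA2, the gene of the group that rose most, is shown for comparison with the windows above, as chrX:14547170-14547469 (plus strand).
GLRA2: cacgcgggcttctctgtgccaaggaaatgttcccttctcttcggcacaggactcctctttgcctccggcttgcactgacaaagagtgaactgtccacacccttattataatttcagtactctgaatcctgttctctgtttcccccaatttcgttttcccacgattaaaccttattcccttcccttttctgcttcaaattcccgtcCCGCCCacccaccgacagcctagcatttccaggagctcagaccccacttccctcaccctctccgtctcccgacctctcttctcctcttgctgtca
It held 11 CpG, more than 18.0% of all windows, and 1 GC box, at a GC content of 52.0%. Among the other genes called higher, CpG counts ran from 14 (GPHN) over 19 (SLC12A5) and 20 (GABRA2) to 50 (GABBR2). Over the 14 counted genes, 12 windows contained a GC box, 1 (that of GABRR2) a TATA match, and CpG counts ran from 5 to 50.

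**Figure D5:**
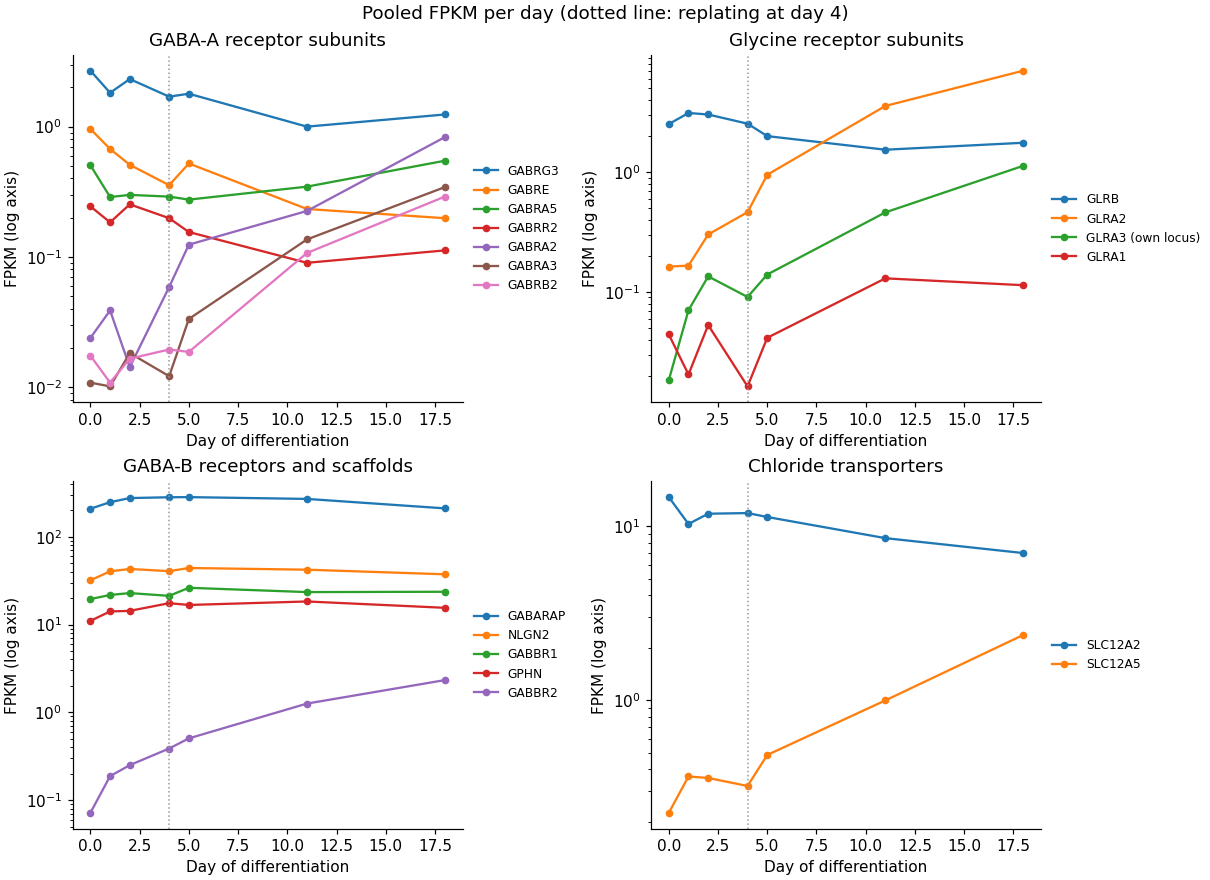
FPKM by day, on log axes, of GABA-A subunits, glycine receptor subunits, GABA-B receptors with scaffold proteins, and chloride transporters, with a dotted line at the replating on day 4. Each point is 1 pooled value without error. GLRA2 passed GLRB between day 5 and day 11, reaching 7.03 FPKM, while GABBR1, GPHN, GABARAP and NLGN2 stayed within 2-fold of their day 0 values.

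The 3 proteins of the postsynaptic side and of receptor transport were expressed throughout and at higher levels than the receptor subunits other than GABBR1. GPHN (chr14:66974125-67648523, plus strand) encodes gephyrin, the scaffold under glycine and many GABA-A receptors. It had 11.0, 14.1, 14.3, 17.5, 16.7, 18.3 and 15.5 FPKM from day 0 to day 18. Its difference of 1.05 relative to the median was just past 2-fold, and that of 0.49 as deposited was not. GABARAP (chr17:7143740-7145753, minus strand), a small protein that binds gamma subunits and also acts in autophagy, had 208, 247, 275, 281, 282, 269 and 210 FPKM. Its first and last values were the lowest of the 7, and the relative difference between them was 0.57 (0.01 as deposited). NLGN2 (chr17:7311502-7323179, plus strand), neuroligin 2, an adhesion protein of inhibitory synapses, had 31.9, 40.3, 42.9, 40.5, 44.0, 42.1 and 37.3 FPKM, a relative difference of 0.78 that was not called (0.22 as deposited).

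The FPKM values were also summed by role. The glycine receptor records chosen by symbol summed to 2.73 FPKM at day 0 and 8.90 at day 18, and the GABA-B pair to 19.5 and 26.0 FPKM. The scaffold group summed to 251 and 263 FPKM, with up to 343 at the days between. The chloride transporter pair summed to 15.0 and 9.38 FPKM, a lower sum in which SLC12A5 took a larger share at day 18 than at day 0. Sums are as deposited and are dominated by their most abundant gene.

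Other proteins that bind, traffic or modify these receptors formed a list of 20 genes, 19 of which were counted. Of these 9 were called higher, 2 lower and 8 in neither direction, beside 18.5% called higher and 12.7% lower of all counted coding records. The median was 0.90 against 0.04 for all counted coding records. SLITRK3, an adhesion protein of inhibitory synapses, rose from 0.264 to 3.89 FPKM (4.01 on the relative log2 scale). KIF5A, a neuronal kinesin, rose from 4.72 to 37.4 FPKM (3.52). KCTD12, an auxiliary subunit of GABA-B receptors, fell from 16.1 to 4.72 FPKM (-1.19), and HAP1, which takes part in the transport of GABA-A receptors, from 6.09 to 1.77 FPKM (-1.17). KCTD16, another auxiliary subunit of GABA-B receptors that was added after its values had been seen, rose from 0.121 to 1.39 FPKM (3.31), so the 2 auxiliary subunits moved in opposite directions.

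The genes that make, load and remove GABA and glycine formed a list of 19, of which 13 were counted, 4 called higher, 1 lower and 8 neither, beside the same 18.5% and 12.7% of all counted coding records. As deposited 2 were called higher and 2 lower, beside 1498 higher and 3983 lower of the 14107 counted coding records. The median of 0.28 became -0.28, where that of all counted coding records went from 0.04 to -0.52. GAD1, which makes GABA from glutamate, was called higher, but its FPKM was only 0.0692 at day 0 and 0.266 at day 18. GAD2, the second such enzyme, and SLC32A1, which loads GABA and glycine into vesicles, had means under 0.1 FPKM and day 18 values of 0.220 and 0.233 FPKM. SLC6A5, the glycine transporter of glycinergic neurons, reached at most 0.0186 FPKM. The receptors for both transmitters were thus measured in cultures in which the messengers of GABA- and glycine-releasing neurons were low. ABAT, the enzyme that breaks down GABA, was abundant and rose from 22.5 to 56.1 FPKM (1.88), and ALDH5A1, which acts after it, rose from 4.82 to 7.45 FPKM (1.18, under 2-fold as deposited), the latter with 38.0% of its exon bases opposite another record. SHMT1, which interconverts serine and glycine, fell from 10.1 to 2.15 FPKM (-1.63). SHMT2, its mitochondrial counterpart, had 87.6 FPKM at day 0 and 40.3 at day 18, a relative difference of -0.56 that was not called.

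Cell type markers moved over the same days, and their part in the differences above was not tested. Of all counted coding records, 18.5% were called higher and 12.7% lower. Of 10 neuron markers 9 were called higher and none lower, with a median of 3.01 and a summed level of 334 to 1443 FPKM, highest at day 18. The 5 progenitor markers were all called in neither direction relative to the median (median -0.38, or -0.94 as deposited, where NES at -1.51 was past 2-fold lower), with sums from 1784 FPKM at day 18 to 4643 FPKM at day 2. The 7 markers of GABA-releasing neurons summed to between 0.377 and 0.981 FPKM, with DLX5 and DLX6 at or below 0.1 FPKM on every day. The 6 astrocyte markers summed to between 32.0 and 88.5 FPKM (4 counted, 1 higher, 1 lower, ALDH1L1 at or below 0.1 FPKM), and the 6 oligodendrocyte lineage markers to between 30.4 and 37.4 FPKM (3 counted, 1 higher). The 7 mesenchymal markers summed to 279 FPKM at day 0 and 36.9 at day 18 (5 counted, 2 lower). Their COL1A1 record was listed at 0 on every day, which can be a failed estimate. The 5 epithelial markers summed to between 12.0 and 22.3 FPKM (3 counted, 1 higher, 1 lower), with KRT8 and CDH1 at or below 0.1 FPKM. Most of that sum, and the call higher, came from the KRT19 record, which is merged with JUP and had 11.2 to 22.0 FPKM.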

How the data were processed

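Polyadenylated RNA of 20 cultures was sequenced by the authors as paired-end 101 base reads, aligned to hg19 with TopHat2, assembled with Cufflinks and quantified with Cuffdiff2 at default options. Versions are not given in the sources used here. The FPKM values deposited by the authors hold 1 pooled estimate per record and day. Groups came from the sample titles. No limma fit was possible without single-sample values, so differences of at least 2-fold in log2(FPKM + 0.1), relative to the median of expressed records, were called, as the design provided. The deposited table also holds the authors' fold changes, test statistics, p-values and q-values between adjacent days. None was used, only the mark for too few fragments and the exon coordinates. All 27 genes are named, with 7 values where the mean reached 0.1 FPKM. From each pathway list the 2 largest rises and falls with a mean of at least 1 FPKM are named, with 6 fixed transmitter and transporter genes. Genes and lists were chosen with earlier results of these data known. Scripts used Python 3.11.15, pandas 2.3.3, numpy 2.4.6 and matplotlib 3.10.9, and were tested on simulated data. Alternatives changed the added value, the filter, the scaling, the fold and the record chosen.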

Additional observations from a re-analysis of the deposited data

How the results depend on the processing

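No paired analysis was possible because the deposited columns hold 1 pooled value per day, and for the same reason no culture could be left out in turn. The depth behind each value is unknown. None of the calls of single genes changed sign, but uncalled values and balances did. As deposited, the calls of all coding records went from 2616 higher and 1795 lower to 1498 and 3983 from day 0 to day 18, and from 528 and 467 to 361 and 645 from day 5 to day 11. GLRB went from 0.07 to -0.49 as deposited, and GABRR2 from -0.14 to 0.32 with 1 FPKM added. The medians of the transmitter and chloride lists also changed sign as deposited, as did that of all counted coding records (0.04 to -0.52). The SLC12A2 to SLC12A5 ratio still fell when 0.1 FPKM was added to both genes. Summing all records of each symbol left its values identical on every day and so tested nothing. Of 64 values of single genes recomputed under an alternative, 12 moved by over 1.5-fold, all with another amount added before the logarithm. These counts hold the GLRA2 record again under the GLRA3 symbol. Taking differences as deposited shifts every gene by the same -0.56, which is under 1.5-fold, so it could move none. It nevertheless changed the calls of GPHN, SLC12A2 and GABRG3. With 1 FPKM added GABRE came to -0.23 and was no longer called, and GLRA2 came to 3.27, against 5.91 with 0.01 FPKM added.

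From day 0 to day 18, 6 group genes were called. Without a filter 11 of 26 were (10 higher, 1 lower), beside 4917 of 20237 coding records. With a mean of at least 1 FPKM 2 of 8 were, beside 3156 of 11793, and among records with enough fragments at all 6 steps 3 of 10, beside 3595 of 12572, the last a choice made after the data had been seen, as was adding GLRA3 at its own locus (7). From day 5 to day 11, 3 were called, but 1 with 1 FPKM added, with a mean of at least 1 FPKM or at 3-fold, and 6 at 1.5-fold. From day 11 to day 18, 4 were called, but 1 with 1 FPKM added, with a mean of at least 1 FPKM or at 3-fold, 2 as deposited and 7 without a filter. At the earlier steps none was called, but with 0.01 FPKM added the 4 steps gave 1, 1, 1 and 2, and at 1.5-fold the first step gave 2 and the step over the replating 1. The transmitter list had 5 calls but 3 with a mean of at least 1 FPKM. The chloride list had 9 (6 higher, 3 lower) but 5 as deposited (2 higher, 3 lower), so that its majority turned. The majority of all coding records called turned in the same way, from 2616 higher and 1795 lower to 1498 and 3983.

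Among all coding records, calls at 1.5-fold and 3-fold numbered 7216 and 2289 over the whole course (4411 at 2-fold), and at the 6 steps in order 3527 and 319 (1210), 485 and 11 (79), 899 and 32 (184), 732 and 10 (100), 2461 and 286 (995), and 2113 and 124 (657). With 1 FPKM added they numbered 454, 11, 41, 11, 414 and 231 at the 6 steps in order. With 0.01 FPKM added they numbered 214, 375 and 265 at the 3 steps between day 1 and day 5. With a mean of at least 1 FPKM they numbered 793, 32, 94 and 49 at the first 4 steps and 381 at the last. As deposited, the share of calls that were upwards was 55.6%, 47.5%, 14.3%, 80.3%, 35.9% and 31.9% at the 6 steps, against 67.8%, 41.8%, 14.1%, 89.0%, 53.1% and 70.9% relative to the median.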
